A study of Mus musculus with 2 samples.

Results

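The 6 genes described here, Ldb3, Pdlim5, Pdlim7, Pdlim3, Pdlim1 and Pdlim4, encode PDZ-LIM proteins and were taken as a named list from the 22380 protein-coding genes of the mm9 GENCODE vM1 annotation. No measured value entered the rule, although the list was drawn up with earlier results of these data known. Their Mbnl2 HITS-CLIP tags were counted over the gene body, on the strand of the gene, in quadriceps muscle of WT mice and of *Mbnl1* KO mice (*Mbnl1*-/-, homozygous for the ΔE3 allele of the study). All mice were 15 to 16 weeks old and labelled as C57BL/6, and 3 mice per genotype were merged by the authors into 1 table. A tag is a short RNA fragment that was crosslinked to Mbnl2 by UV light, trimmed with RNase A and purified with an Mbnl2 antibody. With 1 table per genotype the spread between mice cannot be computed, so no test between genotypes was made and no p-value is given.

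PDZ-LIM proteins carry an N-terminal PDZ domain, which docks on alpha-actinin at the Z-disc, the structure that anchors the thin filaments of neighbouring sarcomeres. The LIM domains at the other end bind kinases and other signalling proteins. Ldb3 (also called ZASP or Cypher), Pdlim5 (ENH) and Pdlim7 (Enigma) have several LIM domains in their long forms, and Ldb3 and Pdlim5 also have short forms that keep the PDZ domain and lack the LIM domains. Pdlim3 (ALP), Pdlim1 (Elfin) and Pdlim4 (RIL) have a lone LIM domain. Mutations in human LDB3 cause myofibrillar myopathy and cardiomyopathy. Muscleblind-like proteins bind RNA at YGCY motifs, where Y is C or U, and regulate splicing, polyadenylation and RNA localization.

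There were 343554 unique tags from WT and 476543 from *Mbnl1* KO muscle, from 5176203 and 50329234 reads. Single-base tags, whose reference sequence is at least 70% one base, made up 44.05% of the WT tags and 16.97% of the *Mbnl1* KO tags, but only 7 of the 169 WT tags and 11 of the 742 *Mbnl1* KO tags on the 6 genes. Tags of 1 read made up 79.0% and 59.5% of the tables. Each value was divided by all tags of its table, so these differences enter every *Mbnl1* KO/WT ratio below, and ratios without such tags are given beside the summed ratio. The median ratio was 1.75 over the 3888 protein-coding genes that had 20 or more tags in both tables together. Markers of skeletal muscle fibres were well covered, with 545 tags in WT and 1915 in *Mbnl1* KO muscle over 9 genes such as Acta1 and Myh4. Of the 4 heart markers, Nppa was at 0 and Myh6 and Tnni3 had at most 4 tags each in either table, while Ryr2 had 21 and 27. Markers of other cells also had tags, with 129 and 486 over 2 fibroblast genes (123 and 471 on the collagen gene Col1a1), 29 and 73 over 2 endothelial genes, 17 and 28 over 2 smooth muscle genes, 20 and 23 over 2 neuronal genes, 0 and 2 on Cd68, the 1 of 2 macrophage genes that was matched, and 2 and 0 on 2 liver genes. The part of these cells in the results was not tested. RNA levels were not analysed here, and in whole muscle fewer cells of a type and less RNA per cell cannot be told apart.

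The 6 genes fell into 3 with many tags and 3 with few. Ldb3 had 94 tags in WT and 390 in *Mbnl1* KO muscle, Pdlim3 had 29 and 165, and Pdlim5 had 36 and 156. Ldb3 ranked 12th of all protein-coding genes by pooled tags, Pdlim3 ranked 99th and Pdlim5 ranked 102nd, counts that are not divided by length. Pdlim1 had 4 and 16 tags, Pdlim7 had 5 and 7, and Pdlim4 had 1 and 8. No member shared its strand with another annotated gene.

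**Figure D1:**
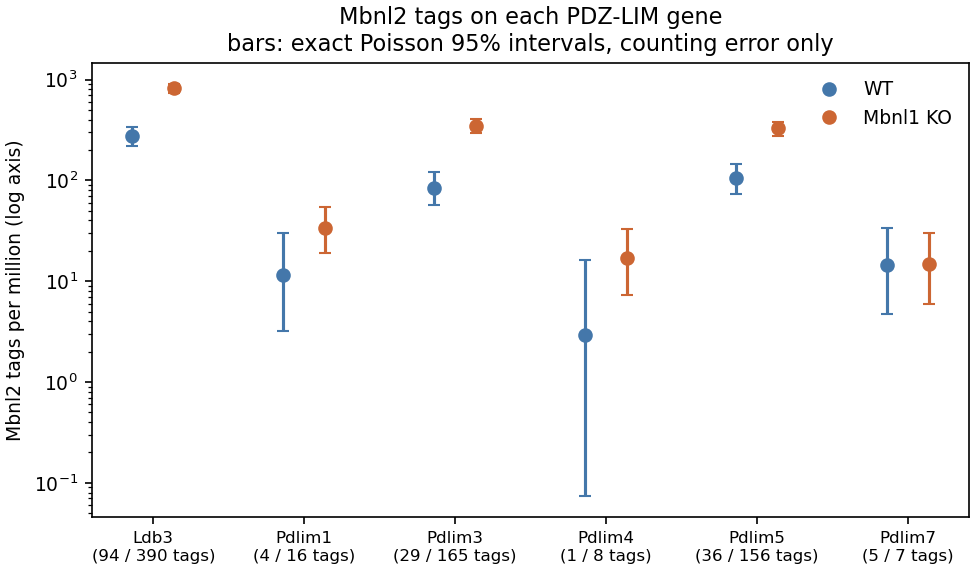
Mbnl2 tags per 1000000 tags of the table (log axis) for each of the 6 genes in WT (blue) and *Mbnl1* KO (orange) muscle, with exact Poisson 95% intervals that cover counting error only. The intervals of the 2 tables stand apart at Ldb3, Pdlim3 and Pdlim5 and overlap at Pdlim1, Pdlim4 and Pdlim7.

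In tags per 1000000, Ldb3 stood at 274 in WT and 818 in *Mbnl1* KO muscle, a ratio of 2.99 with a 95% Clopper-Pearson interval of 2.38 to 3.79. This interval, like those that follow, covers counting error only. Pdlim3 stood at 84.4 and 346, a ratio of 4.10 (interval 2.75 to 6.32). Pdlim5 stood at 105 and 327, a ratio of 3.12 (2.16 to 4.62). The Poisson intervals of the 2 tables did not overlap at any of these 3 genes, and the intervals of the 3 ratios overlapped each other.

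The remaining 3 genes, Pdlim1 (chromosome 19, 40296731 to 40346106), Pdlim4 (chromosome 11, 53868430 to 53882516) and Pdlim7 (chromosome 13, 55597156 to 55615037), all on the minus strand, were too thinly covered to separate the tables. Pdlim1 stood at 11.6 and 33.6 tags per 1000000 (ratio 2.88, interval 0.930 to 11.9) and Pdlim4 at 2.91 and 16.8 (ratio 5.77, interval 0.773 to 256). Pdlim7 stood at 14.6 and 14.7 (ratio 1.01, interval 0.276 to 4.03), and 5 of its 12 tags were single-base tags on an A-rich stretch in intron 10. The interval of Pdlim7 includes 1, and it also includes the ratios of Ldb3, Pdlim1 and Pdlim5.

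Of the 6 genes, 4 reached 20 tags. All 4 had a ratio of at least 2, beside 41.6% of all genes with as many tags, and 3 of the 4 had an interval above 1, beside 38.6%. None had a ratio of 0.5 or less, beside 3.76% of all genes, or an interval below 1, beside 3.83%. The interval depends on the number of tags, so the 3 well covered genes are better read against the 392 genes with at least 100 tags. There 58.7% had a ratio of at least 2, 77.3% had an interval above 1, and the median ratio was 2.27. All 3 of the PDZ-LIM genes passed both marks, as most genes of that depth did. Over all 6 genes together the ratio was 3.17 (2.67 to 3.76), and 3.38 (2.63 to 4.40) without Ldb3. When ratios were scaled so that the median gene with at least 20 tags was at 1, the sum was at 1.81 (1.53 to 2.16). The intervals of Ldb3, Pdlim3 and Pdlim5 then stayed above 1, while only Pdlim3 and Pdlim4 still had a ratio of at least 2. Before that scaling, the intervals of Ldb3 and Pdlim3 lay above 2.27, the median of genes with at least 100 tags. That of Pdlim5 (2.16 to 4.62) included it. Without single-base tags the sum was at 2.22 (1.87 to 2.65), with tags of at least 2 reads at 1.88 (1.52 to 2.36), and with both limits at 1.59 (1.28 to 1.996). With both, the intervals of the same 3 genes were above 1, at 1.39 for Ldb3 (1.04 to 1.90), 2.16 for Pdlim3 (1.31 to 3.76) and 1.75 for Pdlim5 (1.08 to 2.98), and only Pdlim3 had a ratio of at least 2. Tags of at least 25 nt gave a sum of 6.08 (4.67 to 8.04).

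**Figure D2:**
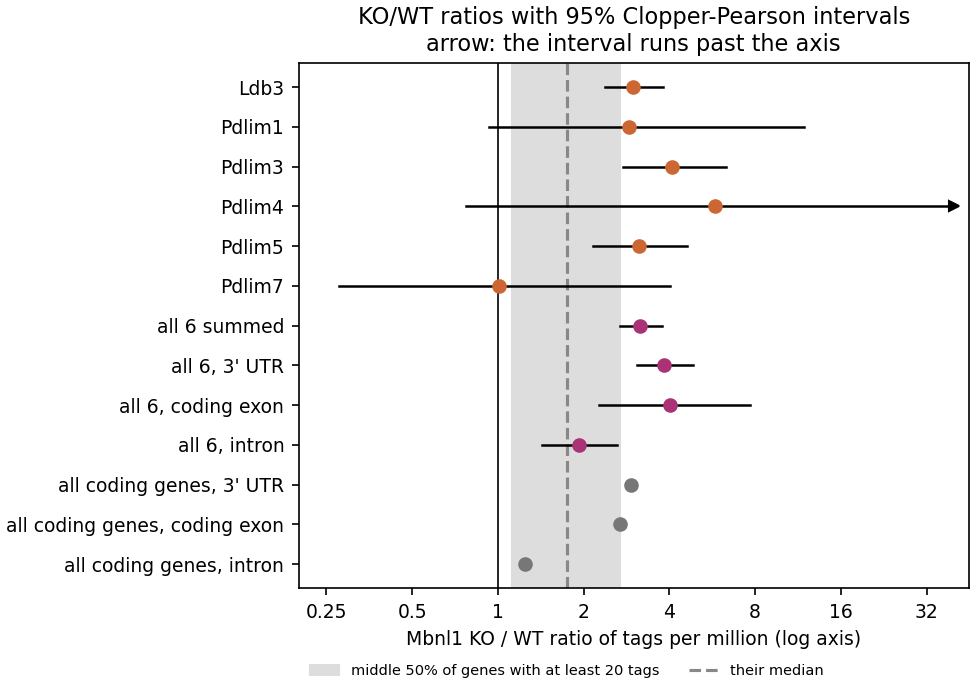
*Mbnl1* KO/WT ratio of tags per 1000000 (log axis) for each gene, for the 6 genes summed and split by region, and for all protein-coding genes by region, with 95% Clopper-Pearson intervals. The grey band is the middle 50% of the 3888 genes with at least 20 tags and the dashed line their median of 1.75. The values of Ldb3, Pdlim3 and Pdlim5 lie to the right of the band, and the intervals of Ldb3 and Pdlim5 reach into it.

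Few tags lay on the opposite strand. There were 2 in WT and 6 in *Mbnl1* KO muscle at Ldb3, 1 and 0 at Pdlim3, and 8 and 9 at Pdlim5. At Pdlim1 the 4 and 3 opposite tags were as many in WT as those on its own strand. Pdlim4 had 0 and 2 and Pdlim7 had 2 and 0. Support by reads differed widely between tags. At least 2 reads stood behind 57 of the 94 WT and 250 of the 390 *Mbnl1* KO tags of Ldb3. At Pdlim5, 1 tag carried 32023 of the 129583 *Mbnl1* KO reads, against a median of 3.5 reads per tag. The median tag at Ldb3 was 23 nt long in WT and 30 nt in *Mbnl1* KO muscle.

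Most of the tags lay in 3′ UTRs. Each tag was given to 1 region, in the order 3′ UTR, coding exon, 5′ UTR, other exon and intron, over all transcripts of its gene. The 3′ UTR share of the 6 genes together was 54.4% in WT (interval 46.6 to 62.1) and 66.04% in *Mbnl1* KO muscle (62.5 to 69.4). Over all protein-coding genes the share was 16.5% and 29.9%. These shares include single-base tags, which were few on the 6 genes. Of the tags on protein-coding genes, 63819 of 87260 in WT and 179671 of 195144 in *Mbnl1* KO muscle were not single-base tags. By gene, the 3′ UTR share was 56.4% and 62.1% at Ldb3, 65.5% and 74.5% at Pdlim3, and 44.4% and 69.2% at Pdlim5. With only the longest coding transcript of each gene, the share of the 6 genes was 23.7% and 32.3%, since the last exons of the short Ldb3 and Pdlim5 transcripts then count as intron.

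The introns showed the opposite order. At Pdlim5 they held 52.8% of tags in WT (35.5 to 69.6) and 26.3% in *Mbnl1* KO muscle (19.6 to 33.9), intervals that do not overlap. At Ldb3 they held 30.9% and 20.5% and at Pdlim3 31.0% and 21.2%, with overlapping intervals. The intron share over all protein-coding genes, single-base tags included, was 75.6% and 58.2%, so the same order held there.

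**Figure D3:**
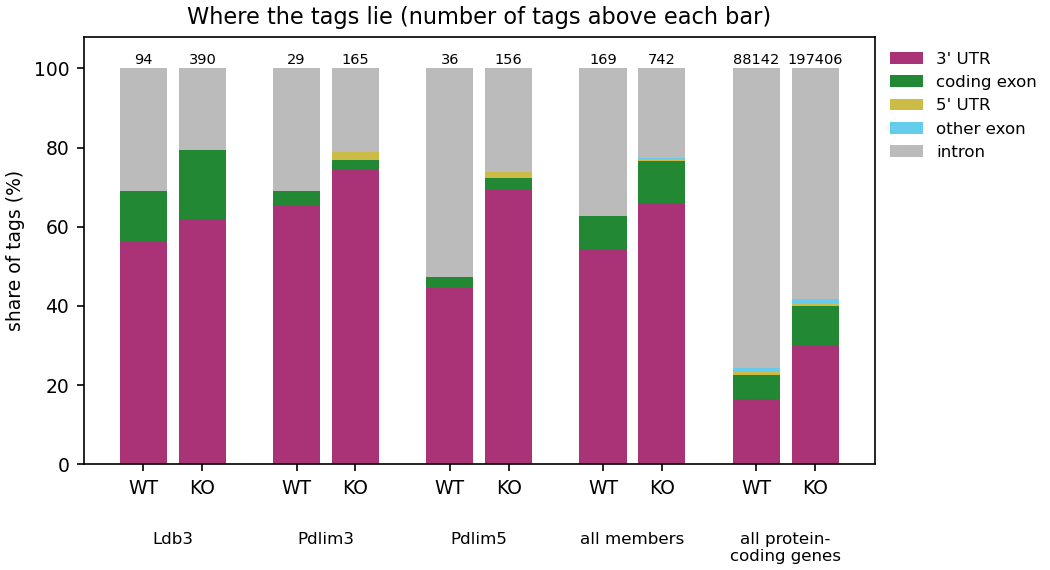
Share of tags (%) in 3′ UTR, coding exon, 5′ UTR, other exon and intron for WT and *Mbnl1* KO muscle at Ldb3, Pdlim3, Pdlim5, the 6 genes together and all protein-coding genes, with the number of tags above each bar. The 6 genes have 54.4% and 66.04% of their tags in 3′ UTRs, against 16.5% and 29.9% over all genes. Single-base tags are included.

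The *Mbnl1* KO/WT ratio was higher in 3′ UTRs than in introns, with intervals that did not overlap. In the 3′ UTRs of the 6 genes it was 3.84 (3.07 to 4.85), from 92 tags in WT and 490 in *Mbnl1* KO muscle, and in their coding exons 4.02 (2.26 to 7.68), from 14 and 78 tags. In their introns it was 1.92 (1.43 to 2.61), from 63 and 168 tags. The intervals overlap under 3 of the 5 other settings tried. With tags of at least 2 reads, 3′ UTRs were at 2.10 (1.60 to 2.80) and introns at 1.17 (0.764 to 1.85). Counting tags that share a 5′ end as 1, 3′ UTRs were at 2.60 (2.01 to 3.41) and introns at 1.78 (1.28 to 2.51). With only the longest coding transcript of each gene, 3′ UTRs were at 4.33 (3.09 to 6.21) and introns at 2.64 (2.15 to 3.27). Over all protein-coding genes it was 2.93 in 3′ UTRs (2.88 to 2.99), 2.68 in coding exons (2.60 to 2.76) and 1.24 in introns (1.23 to 1.25). The 3′ UTR ratio was 3.29 at Ldb3 (2.44 to 4.52), 4.67 at Pdlim3 (2.87 to 8.02) and 4.87 at Pdlim5 (2.86 to 8.82). The intron ratio was 1.99 at Ldb3 (1.29 to 3.16), 2.80 at Pdlim3 (1.32 to 6.63) and 1.56 at Pdlim5 (0.883 to 2.84).

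At Ldb3 and Pdlim5 the 3′ UTR tags did not lie mainly at the end of the gene. Exons are numbered here from the 5′ end after merging overlapping exons of the coding transcripts. Ldb3 (mm9 chromosome 14, 35339885 to 35401867, minus strand) has 17 such exons. Exon 10 (35374439 to 35375067) is the last exon of the short transcript Ldb3-203 and is skipped by the 4 long transcripts, which end in exon 17 (35339885 to 35342735). The 3′ UTR in exon 10, 535 nt long, held 36 tags in WT and 151 in *Mbnl1* KO muscle, or 38.3% (28.5 to 48.9) and 38.7% (33.9 to 43.8) of all Ldb3 tags. The 3′ UTR in exon 17, 2764 nt long, held 17 and 91 tags, or 18.1% (10.9 to 27.4) and 23.3% (19.2 to 27.9). Per kb of 3′ UTR this is 196 and 592 tags per 1000000 in exon 10 and 17.9 and 69.1 in exon 17. The ratio was 3.02 (2.09 to 4.48) in exon 10 and 3.86 (2.28 to 6.91) in exon 17, so the share of the short 3′ UTR was alike in the 2 tables within counting error.

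Pdlim5 (chromosome 3, 141903568 to 142058630, minus strand) showed the same arrangement. Its exon 11 (141965044 to 141966385) ends 5 short transcripts, and exon 17 (141903568 to 141905733) ends the long transcript Pdlim5-201. The 3′ UTR in exon 11, 1251 nt long, held 15 tags in WT and 96 in *Mbnl1* KO muscle, 41.7% (25.5 to 59.2) and 61.5% (53.4 to 69.2) of the gene's tags. The 3′ UTR in exon 17, 2079 nt long, held 1 and 12. Per kb of 3′ UTR, exon 11 had 34.9 and 161 tags per 1000000 and exon 17 had 1.40 and 12.1. The ratio was 4.61 (2.66 to 8.56) in exon 11. In exon 17 it was 8.65, with an interval of 1.28 to 370 that the lone WT tag leaves wide.

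At Pdlim7 the comparable 3′ UTR of the short transcripts, in exon 7 (chromosome 13, 55608134 to 55609687), held 1 tag in WT and 3 in *Mbnl1* KO muscle, and the last exon held 0 and 0. A count of 0 was taken to allow up to 3 tags, or 8.73 tags per 1000000 in WT and 6.30 in *Mbnl1* KO muscle. This is an upper bound only and not the exact interval used elsewhere. Pdlim3 (chromosome 8, 46970839 to 47004900, plus strand) has 1 annotated transcript, whose 3′ UTR of 535 nt held 19 and 123 tags, or 103 and 482 tags per 1000000 per kb. By that measure, levels in *Mbnl1* KO muscle were in the order Ldb3 exon 10, Pdlim3, Pdlim5 exon 11, Ldb3 exon 17 and Pdlim4, whose short 3′ UTR stood at 68.8 from 8 tags. Counting error did not separate the first 2 (ratio 1.23, interval 0.961 to 1.57) or the last 2 (1.00, 0.489 to 2.40), while the other neighbours in the order had intervals above 1. Every Pdlim4 tag, 1 in WT and 8 in *Mbnl1* KO muscle, lay in 1 cluster that crosses the annotated end of the gene (53868427 to 53868456), and its summit holds 2 YGCY motifs, in capitals:
Pdlim4 exon 8, chr11:53868425-53868454, minus strand: taaagtccttcTGCTTGCTctggaactagc

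**Figure D4:**
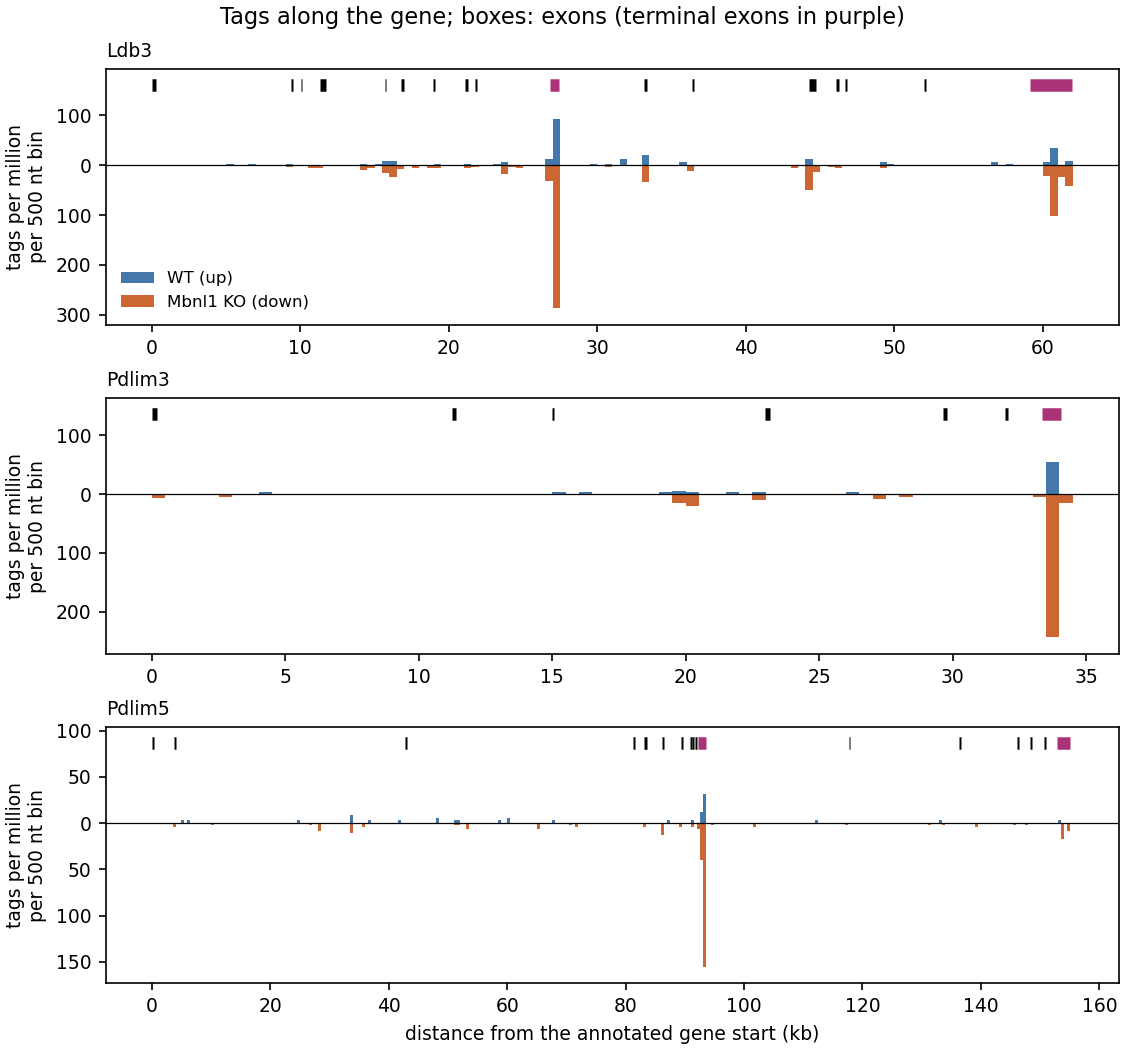
Tags per 1000000 in bins of equal length along Ldb3, Pdlim3 and Pdlim5, by distance from the annotated gene start (kb), with WT drawn upwards and *Mbnl1* KO downwards and exons as boxes (terminal exons in purple). The highest bin of Ldb3 and of Pdlim5 lies inside the gene, in the last exon of the short transcripts, and that of Pdlim3 in its last exon.

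Overlapping tags of both tables were joined into clusters, and 15 clusters on the 6 genes had at least 10 tags, 9 on Ldb3 and 3 each on Pdlim3 and Pdlim5. Of these, 12 lay in 3′ UTRs, 2 in coding exons and 1 in an intron. They held 89 of the 169 WT tags and 428 of the 742 *Mbnl1* KO tags. All 15 had more tags per 1000000 in *Mbnl1* KO than in WT muscle, as did 77.1% of the 2066 clusters of that size on protein-coding genes, and 10 of 15 had an interval above 1, beside 32.4%. Leaving out clusters made mostly of single-base tags, these are 14 of 14 beside 93.9% and 10 of 14 beside 42%. All 15 held at least 10 *Mbnl1* KO tags and 4 held at least 10 WT tags, so they passed the limit on tags through the *Mbnl1* KO table. The 30 nt around the summit of the 3′ UTR clusters with most tags are shown on the strand of the RNA, read from mm9, with YGCY motifs in capitals and all other bases in lower case. The motif stands for TGCT or TGCC or CGCT or CGCC, was searched on the strand of the gene only, and matches may overlap:
Ldb3 exon 10, chr14:35374506-35374535, minus strand: atacttgtgTGCTggcttcatagttctttc
Ldb3 exon 10, chr14:35374797-35374826, minus strand: tctcTGCCcaccccagagctgacagctgag
Ldb3 exon 17, chr14:35341307-35341336, minus strand: taggtgagcttggtaaagctatttagaagt
Pdlim3 exon 7, chr8:47004494-47004523, plus strand: gacatttatctTGCTgtgtagagagggaaa
Pdlim3 exon 7, chr8:47004714-47004743, plus strand: ttccaagtTGCTtttagtaattgtagtaag
Pdlim5 exon 11, chr3:141965299-141965328, minus strand: aatgcattttgaagcttggaaagagttgta
Pdlim5 exon 11, chr3:141965533-141965562, minus strand: acatagcttTGCTgcatctttatgttggag

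The first Ldb3 cluster (35374452 to 35374577) had 15 tags in WT and 64 in *Mbnl1* KO muscle, or 43.7 and 134 tags per 1000000, a ratio of 3.08 (1.73 to 5.81). At most 13 tags in WT and 40 in *Mbnl1* KO muscle covered a base, and the highest points of the 2 tables lay 1 nt apart. The second (35374647 to 35374912) had 17 and 62 tags (ratio 2.63, interval 1.52 to 4.80), spread over 266 nt, with summits 12 nt apart. The exon 17 cluster (35341224 to 35341345) had 12 and 40 tags, a ratio of 2.40 (1.24 to 5.03), and its summits lay 2 nt apart. At Pdlim3 the 2 clusters had 10 and 57 tags (ratio 4.11, interval 2.08 to 9.03) and 7 and 38 tags (ratio 3.91, interval 1.73 to 10.4), each with summits 4 nt apart. The largest Pdlim5 cluster (141965274 to 141965335) had 9 and 47 tags, a ratio of 3.76 (1.82 to 8.74), with its highest point at the same base in both tables.

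A neighbouring cluster in Pdlim5 exon 11 (141965524 to 141965570), whose summit is the last of the sequences above, had 0 tags in WT and 19 in *Mbnl1* KO muscle. That is 39.9 tags per 1000000 in *Mbnl1* KO muscle, with a ratio interval from 3.36 upward, where the bound of 3 tags allows up to 8.73 in WT. The 19 tags began at 7 positions, and 16 of them rested on at least 2 reads. Over the whole tables, tags had 106 reads on average in *Mbnl1* KO and 15.1 in WT muscle. The cluster passed the limit of 10 tags through its *Mbnl1* KO tags alone, so its interval is no test of a difference. It was the only one of the 15 clusters without a WT tag.

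**Figure D5:**
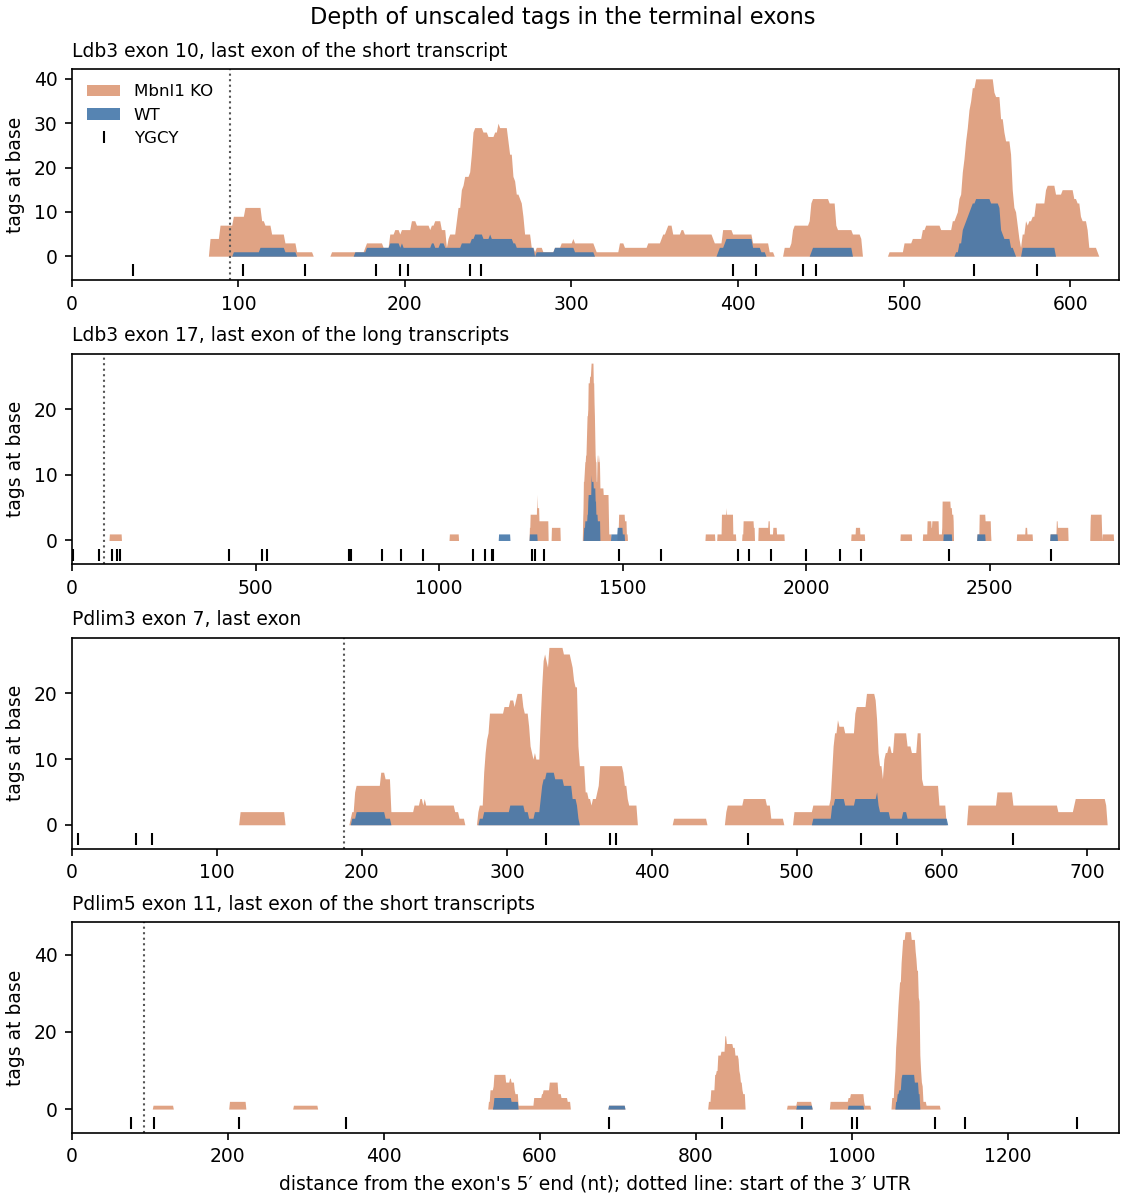
Number of unscaled tags covering each base of Ldb3 exons 10 and 17, Pdlim3 exon 7 and Pdlim5 exon 11, by distance from the 5′ end of the exon (nt), for *Mbnl1* KO (orange) and WT (blue), with YGCY motifs as ticks and the start of the 3′ UTR as a dotted line. The highest depth is 40 *Mbnl1* KO and 13 WT tags in Ldb3 exon 10 and 46 and 9 in Pdlim5 exon 11.

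A YGCY motif was present in the 30 nt at 10 of the 15 summits, or 66.7% (38.4 to 88.2). Of all 30 nt windows in the 3′ UTRs of the 6 genes, 35.0% held one, as did 44.4% of windows in their coding exons and 26.1% in their introns. Among the 2066 clusters of at least 10 tags on protein-coding genes, 54.2% had a motif at the summit. Without clusters made mostly of single-base tags, the share was 71.4% (41.9 to 91.6) of 14 in the 6 genes and 71.2% of 1520 over all protein-coding genes. The largest Pdlim5 cluster and the Ldb3 exon 17 cluster are among the 5 without one. By tag, 62.8% of WT and 59.2% of *Mbnl1* KO tags held a motif at Ldb3, 69.0% and 57.0% at Pdlim3, and 38.9% and 36.5% at Pdlim5. The level over all protein-coding genes without single-base tags was 45.8% and 53.4%. These shares are not matched for tag length, and a longer tag has more room for a motif. The median tag over all protein-coding genes without single-base tags was 22 nt in WT and 24 nt in *Mbnl1* KO muscle. It was 23 and 30 nt at Ldb3, 26 and 29 nt at Pdlim3, and 22.5 and 27 nt at Pdlim5. The shares of these genes also keep their single-base tags. The 3′ UTR in Ldb3 exon 10 has 2.43 motifs per 100 nt, against 1.01 in exon 17, and the one in Pdlim5 exon 11 has 0.879, against 1.49 in the thinly covered exon 17. The order of motif density was thus not the order of the tags.

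RNase A cuts after C and U. The base before the tag was C or T in 69.2% of WT and 73.0% of *Mbnl1* KO tags on the 6 genes. Over all protein-coding genes without single-base tags it was so in 59.5% of WT tags, which is lower, and in 70.6% of *Mbnl1* KO tags, which is close. The last base of the tag was C or T in 52.1% of WT and 58.8% of *Mbnl1* KO tags on the 6 genes. Both lay below the 60.3% and 64.4% over all protein-coding genes without single-base tags.

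The internal alternative exons of the annotation carried few tags, unlike the alternative last exons of Ldb3 and Pdlim5 described above. There are 10 internal coding exons in the 6 genes that are skipped by at least 1 coding transcript that spans them and end none, and together they had 6 tags in WT and 25 in *Mbnl1* KO muscle. Most of these fell in Ldb3 exon 11 (35368529 to 35368714), a coding exon of 186 nt that Ldb3-202 skips, with 5 tags in WT and 16 in *Mbnl1* KO muscle (ratio 2.31, interval 0.808 to 8.05). The main cluster in it had 3 and 12 tags and the most motifs at any summit of the 15 clusters, 5 in 30 nt. A smaller cluster in the same exon had 2 and 4 tags and 3 motifs. It was singled out after its values were seen, as were the smaller clusters below. The summits are shown in the same way:
Ldb3 exon 11, chr14:35368643-35368672, minus strand: ttcccCGCTGCTGCCTGCTtcTGCCcagtc
Ldb3 exon 11, chr14:35368544-35368573, minus strand: CGCCtcTGCTgcaggcccTGCCgcaagtcc

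The introns beside exon 11 held more WT than *Mbnl1* KO tags, 6 and 3 in intron 10 (ratio 0.360, interval 0.0583 to 1.69) and 4 and 0 in intron 11 (upper bound 1.09), too few to separate the tables. In exon 13 (35357159 to 35357603), present in all 4 long transcripts, there were 4 tags in WT and 31 in *Mbnl1* KO muscle, a ratio of 5.59 (1.98 to 21.8).

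In the block of alternative exons 4 to 7, where skeletal and cardiac forms of Ldb3 diverge, the introns held more tags than the exons. Intron 5 (35385108 to 35386175), between the alternative exons 5 and 6, held 5 tags in WT and 19 in *Mbnl1* KO muscle in 1068 nt, a ratio of 2.74 (0.989 to 9.39). With 22.5 pooled tags per kb it was the densest of the 23 introns of the 6 genes with at least 3 tags, followed by Ldb3 intron 3 at 4.80 and Pdlim3 intron 3 at 4.17. Intron 4 held 2 and 9 tags (3.24, interval 0.671 to 30.9), and intron 6 held 0 and 7, with an interval from 1.04 upward. Of the exons themselves, exon 4 had 0 and 1 tags, exon 5 had 1 and 1, exon 6 had 0 and 3 and exon 7 had 0 and 0. Intron 5 had 2 small clusters, with 2 tags in WT and 6 in *Mbnl1* KO muscle 207 nt downstream of exon 5, and 2 and 7 tags 382 nt upstream of exon 6, both with several motifs:
Ldb3 intron 5, chr14:35385929-35385958, minus strand: ctTGCTccccatttccTGCTgcagcagctt
Ldb3 intron 5, chr14:35385514-35385543, minus strand: ggactcTGCTtgtactTGCTGCCtctcttc

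Pdlim3 intron 3 (46985914 to 46993822) held 7 tags in WT and 26 in *Mbnl1* KO muscle, a ratio of 2.68 (1.13 to 7.31), of the 9 and 35 intron tags of the gene. The annotation has 1 Pdlim3 transcript and lacks the alternative exons known for this gene, so tags counted here as intron may lie in or near such an exon. A small cluster 20 nt upstream of exon 4 had 1 and 5 tags, and another, 2962 nt upstream of that exon, had 0 and 6. At Pdlim5, introns 2 and 3, of 38827 and 38285 nt, held most of the WT intron tags. Intron 2 had 8 and 13 tags (ratio 1.17, interval 0.450 to 3.26) and intron 3 had 8 and 11 (0.991, 0.363 to 2.84). These long introns thus showed no difference detectable at this depth. The 1 intron cluster of at least 10 tags, in Ldb3 intron 9 (35377845 to 35377890), had 2 tags in WT and 11 in *Mbnl1* KO muscle. Of its 13 tags, 11 were single-base tags, on the C-rich stretch shown here:
Ldb3 intron 9, chr14:35377853-35377882, minus strand: gctctttccccccccccccccccccccccg

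Other genes of the Z-disc were counted in the same way, from lists fixed with earlier results known. Of 21 Z-disc genes, 16 had at least 20 tags, 10 of these had a ratio of at least 2, beside 41.6% of all genes with as many tags, 12 had an interval above 1, beside 38.6%, and 0 had a ratio of 0.5 or less, beside 3.76%. Their median ratio was 2.48, beside 1.75 for all genes with at least 20 tags and 2.27 for those with at least 100. The 9 skeletal muscle fibre markers had nearly the same median, 2.46, with a ratio of at least 2 at 8 and an interval above 1 at all 9, and the 2 fibroblast genes had a median of 2.28. Neb, the thin filament ruler, had 74 tags in WT and 369 in *Mbnl1* KO muscle (ratio 3.59), and Fhl1, a LIM protein of the sarcomere, had 34 and 176 (3.73). Ttn had a ratio of 2.58, Synpo2 2.03, Synpo2l 3.20 and Myot 1.91. Actn2, the alpha-actinin that binds these PDZ domains, had 14 and 78 tags (4.02, interval 2.26 to 7.68). Of 5 signalling partners, all with at least 20 tags, 3 had a ratio of at least 2, beside the same 41.6%, among them the calcineurin subunit Ppp3ca (3.76) and the kinase Prkca (2.26).

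Among the other genes with PDZ and LIM domains, only Lmo7 had at least 20 tags. It had 46 tags in WT, more than Pdlim3 or Pdlim5, and 41 in *Mbnl1* KO muscle, a ratio of 0.643 with an interval of 0.411 to 1.00, and Limk2 had 7 and 9. Limk1 had 3 and 2 tags. Pdlim2, the family member outside the list, had 0 and 3.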

How the data were processed

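HITS-CLIP tags were analysed from 1 merged table per genotype. Per the paper's methods, the authors kept high-quality reads, mapped these against mm9 using BWA (version not given in the sources used here), discarded sequences under 20 nt and removed potential PCR duplicates. Per the labels, the 3 mice of a genotype were merged. RNase A was used at 38.6 and 0.0386 U/ml, and the tables do not separate tags by concentration. The paper does not say whether libraries of both were sequenced. The deposited count gives how many reads were joined in a tag, without normalization, and each row is 1 tag. Tags of 18 and 19 nt were present and kept.

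Tags overlapping a region on its strand were counted in mm9 GENCODE vM1 with Python 3.11.15, numpy 2.4.6, pandas 2.3.3, scipy 1.17.1 and pysam 0.24.0, and divided by the tags of the table. samtools 1.23.1 indexed the genome and matplotlib 3.10.9 drew the figures. Intervals are exact at 95%, while the level allowed by a count of 0 is a fixed upper bound of 3 tags. The interval code was tested on simulated counts. The named items were the 6 genes, their clusters of at least 10 tags, their alternative exons and list genes with at least 100 tags. Actn2 and other genes under that number were named after their values were seen. Members and lists were chosen with earlier results of these data known. Alternatives were other scalings, tag filters, collapses, counting rules and annotations. Thinned reads and leaving out Ldb3 were added after the data were seen.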

Additional observations from a re-analysis of the deposited data

How the results depend on the processing

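Over the alternatives that gave a value, the ratio at Ldb3 ran from 1.39 to 7.22, at Pdlim3 from 2.16 to 8.31, at Pdlim5 from 1.75 to 5.24 and at Pdlim4 from 1.25 to 8. Pdlim1 fell to 0.862 when tags needed 2 reads and single-base tags were dropped, and Pdlim7 lay between 0.449 and 1.40. The summed ratio of 3.17 became 4.39 unscaled, 1.81 scaled to the median gene, 2.22 without single-base tags, 1.88 with at least 2 reads, 1.59 with both, 6.08 with tags of at least 25 nt and 2.37 with the same 5′ end collapsed. Among settings chosen after the data were seen, it became 5.52 when reads from *Mbnl1* KO muscle were thinned to the total in WT and 2.22 with that thinning unscaled. The number of genes with a ratio of at least 2, 5 of 6, was 2 scaled to the median gene, 2 with at least 2 reads and 1 when single-base tags were dropped as well. It was 4 without single-base tags, with tags of at least 25 nt and with unscaled thinning. The number with an interval above 1, which was 3, was 5 unscaled and 4 with tags of at least 25 nt. With tags of at least 25 nt, Pdlim1 had 0 WT and 10 *Mbnl1* KO tags and an interval from 1.75 upward. The 5 genes with a ratio of at least 2 include Pdlim1 and Pdlim4, whose intervals include 1 in the main setting. Over all genes with at least 20 tags, 41.6% had such a ratio and 38.6% an interval above 1 in that setting. These shares were not computed for the other settings.

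In 3′ UTRs the ratio was 2.62 without single-base tags, 2.10 with at least 2 reads and 2.60 with the same 5′ end collapsed, and in introns 1.38, 1.17 and 1.78 under these settings. With the longest coding transcript only, the 3′ UTR share was 23.7% in WT and 32.3% in *Mbnl1* KO muscle and the intron ratio 2.64, since Ldb3 exon 10 and Pdlim5 exon 11 then count as intron. With the same 5′ end collapsed the *Mbnl1* KO share was 59.1%. Clusters numbered 33 with at least 5 tags, 7 with at least 20 and 8 with the same 5′ end collapsed. For the other changes the cause was not tested. Pdlim1 with tags of at least 25 nt and Pdlim7 with at least 2 reads had 0 WT tags and gave no ratio. Few tags limit Pdlim1, Pdlim4 and Pdlim7. No paired analysis was possible because each table merges the 3 mice of its genotype, which also prevented leaving out a mouse.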
